A study of Mus musculus with 8 samples.

Results

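The circadian clock genes described here are *Per1*, *Per2*, *Per3*, *Cry1*, *Cry2*, *Nr1d1*, *Nr1d2*, *Dbp*, *Bhlhe40* and *Arntl*, 10 of the 37310 genes in the deposited table of counts, chosen by gene symbol. NMuMG cells, an established mouse line of normal mammary epithelium, were sequenced for RNA in 4 groups of 2 biological replicates. These were untreated control cells, control cells given 10 ng/ml TGF-β1 for 2 h, untreated cells labelled *Lnc-Nr6a1* knockout, and cells labelled knockout given the same dose for the same time. The study asked what the long non-coding RNA *Lnc-Nr6a1* does early in the epithelial-to-mesenchymal transition that TGF-β starts. The knockout was made with CRISPR-Cas9 guides to the promoter and first exon, and homozygous clones were used, but which clone or how many clones were sequenced is not given in the sources used here. Neither the hour of harvest nor any synchronisation of the cultures is given there, and whether untreated cells were washed or received the carrier of the cytokine is not given either.

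The 8 libraries held between 4297832 and 13574397 counts, the former without and the latter with TGF-β in the cells labelled knockout. At these depths 3 counts, taken as the floor of detection, correspond to 0.238 to 0.661 CPM (counts scaled to one common size of library with TMM factors), which covers counting error only. The targeted gene, listed as Gm13507, had 3 and 14 counts in untreated control cells and 25 and 35 after TGF-β. In the libraries labelled knockout it had 11 and 7 counts without treatment and 0 and 0 after TGF-β, so in the untreated ones the loss named by the label was not seen, and all of these are called libraries labelled knockout. These few counts are summed over the whole gene and do not show whether reads came from the targeted first exon or from later exons. Of 6 epithelial markers, *Cdh1*, *Krt8* and *Krt18* were well counted in all libraries, whereas *Epcam* had at most 2 counts and *Cldn3* and *Cldn7* had 0. Markers of immune, endothelial, adipocyte and fibroblast cells each summed to at most 5.32 CPM in a library.

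In the molecular clock, the proteins encoded by *Arntl* (BMAL1) and *Clock* bind E-boxes as a pair and activate *Per*, *Cry*, *Nr1d* and *Dbp* genes. The PER and CRY proteins then block that pair, while the nuclear receptors REV-ERBα and REV-ERBβ, encoded by *Nr1d1* and *Nr1d2*, repress *Arntl*, and BHLHE40 competes at E-boxes. DBP is a bZIP activator that drives output genes through D-boxes. Most cultured cells hold such a clock, its phase can be reset by serum and other signals, and *Bhlhe40* was also described as a gene that responds quickly to growth factors and TGF-β.

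Because members that were lower after TGF-β share E-box control as textbook background, their upstream sequences are shown. Promoter windows of 300 bases, from 250 before to 50 after each annotated start, came from RefSeq on GRCm38.p6 and covered 10 starts of 8 members. *Per2* and *Bhlhe40* were not among them. Motifs were searched on both strands as the E-box CACGTG, the E′-box CACGTT, the D-box TTATGTAA or its variant with C at the centre, the cAMP response element core TGACGTC, and the ROR/REV-ERB element. Of 32851 windows in the whole table, 7.15% held the E-box, 4.68% the E′-box, 1.06% the D-box, 3.21% the cAMP response element core and 0.384% the ROR/REV-ERB element. The 250 bases before the start of the 4 members that were called lower after TGF-β in control cells follow, 5′ to 3′ on the strand of the gene, with any matched motif in capitals.

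Per1 start 1, plus strand, chr11:69098699-69098948: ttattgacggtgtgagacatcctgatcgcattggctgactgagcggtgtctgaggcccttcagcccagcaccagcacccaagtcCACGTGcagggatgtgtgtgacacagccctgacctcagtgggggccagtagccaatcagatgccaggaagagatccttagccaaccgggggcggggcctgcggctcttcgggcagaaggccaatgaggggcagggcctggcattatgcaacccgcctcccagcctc
Per1 start 2, plus strand, chr11:69099902-69100151: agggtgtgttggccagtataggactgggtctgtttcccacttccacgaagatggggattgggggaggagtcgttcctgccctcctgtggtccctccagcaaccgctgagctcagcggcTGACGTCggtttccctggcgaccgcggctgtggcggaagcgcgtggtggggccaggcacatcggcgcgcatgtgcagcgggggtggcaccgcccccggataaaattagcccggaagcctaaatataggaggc
Nr1d1, minus strand, chr11:98775378-98775627: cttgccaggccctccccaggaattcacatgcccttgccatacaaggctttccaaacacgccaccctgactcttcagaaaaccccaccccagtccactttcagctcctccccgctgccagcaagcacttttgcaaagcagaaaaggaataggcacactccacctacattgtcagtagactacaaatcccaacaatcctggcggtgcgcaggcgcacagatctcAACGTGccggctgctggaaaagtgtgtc
Cry2, minus strand, chr2:92434070-92434319: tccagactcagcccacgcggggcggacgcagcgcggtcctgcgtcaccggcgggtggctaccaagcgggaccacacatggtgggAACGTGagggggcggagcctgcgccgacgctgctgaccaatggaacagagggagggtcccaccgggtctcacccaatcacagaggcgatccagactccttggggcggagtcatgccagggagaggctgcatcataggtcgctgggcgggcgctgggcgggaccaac
Dbp, plus strand, chr7:45704997-45705246: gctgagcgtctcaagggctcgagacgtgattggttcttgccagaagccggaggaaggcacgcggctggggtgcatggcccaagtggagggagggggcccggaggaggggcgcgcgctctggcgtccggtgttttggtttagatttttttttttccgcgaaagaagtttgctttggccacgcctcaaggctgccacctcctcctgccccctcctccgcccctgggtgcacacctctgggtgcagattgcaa

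The first start of *Per1* held an E-box at positions -166 to -161 from the start, and the second a cAMP response element core at -132 to -126. *Nr1d1* and *Cry2* each held an E′-box, read on the opposite strand, at positions -28 to -23 and -166 to -161. In the window of *Dbp* none of these letters occurred, nor did they in that of *Nr1d2*, which says nothing of sites elsewhere in these genes. Stretches of 30 bases from 3 members that were not called after TGF-β are shown for comparison. Those of *Per3* and *Arntl* hold kinds of match not seen above, and that of *Cry1* holds an E-box, as *Per1* does.

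Per3 D-box, minus strand, chr4:151044852-151044881: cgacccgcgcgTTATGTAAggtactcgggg
Cry1 E-box, minus strand, chr10:85185097-85185126: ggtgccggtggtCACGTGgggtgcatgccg
Arntl start 2 ROR/REV-ERB element, plus strand, chr7:113207528-113207557: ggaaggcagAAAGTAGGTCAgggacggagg

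*Per3* held the D-box at 2 places and *Cry1* an E′-box beside its E-box, and the element of *Arntl* lay 26 to 36 bases after its second start. A match is a description of the letters only.

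**Figure D1:**
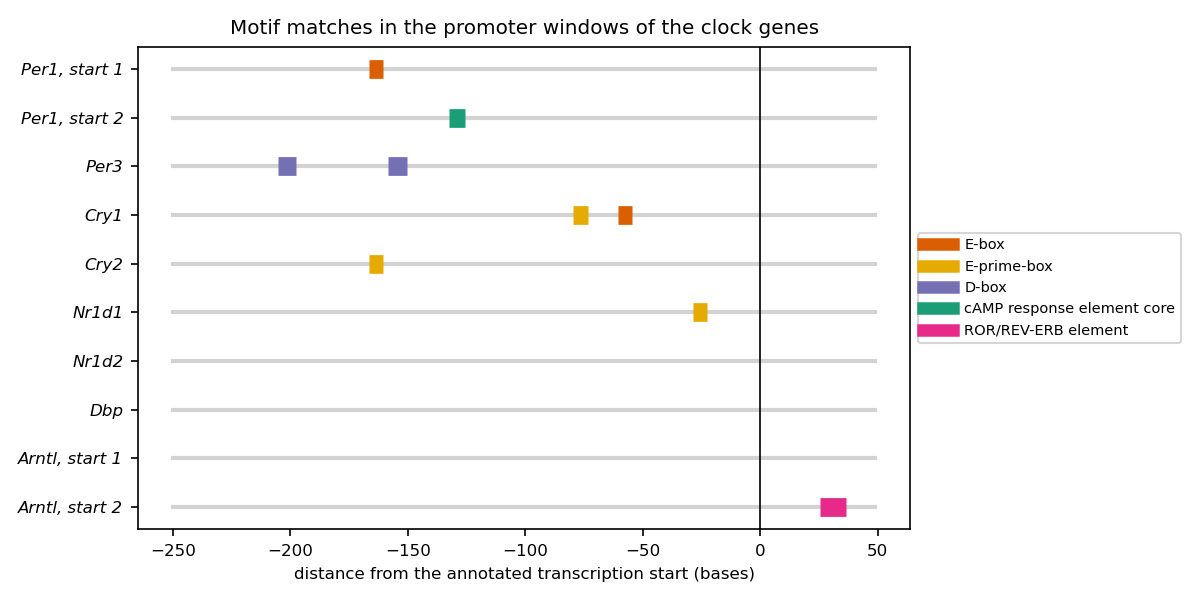
Positions of motif matches in the 10 promoter windows, in bases from the annotated start (vertical line); grey lines mark the searched windows and colours the motif. E-boxes or E′-boxes lie in windows of Per1, Cry1, Cry2 and Nr1d1, and Per3 alone holds D-boxes.

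Among untreated control libraries, the order of the members was compared per length, as CPM per kilobase of annotated exons. *Bhlhe40* stood first with 20.6 ± 2.69 (SD, n = 2) CPM per kilobase, followed by *Nr1d2* with 11.6 ± 1.57, *Arntl* with 5.58 ± 0.663 and *Cry1* with 4.45 ± 0.219. The libraries of each of these 4 neighbours did not overlap. From *Dbp* (3.34 ± 0.263) through *Nr1d1*, *Per2*, *Per3* and *Per1* to *Cry2* (1.96 ± 0.179), each gene overlapped the next one in the order. After TGF-β in control cells *Dbp* was last, at 0.434 ± 0.106 (SD, n = 2) CPM per kilobase, below *Nr1d1* at 0.686 ± 0.0364, whose libraries overlapped those of *Per1* at 0.720 ± 0.0879. *Bhlhe40* was first in all 4 groups and reached 130.4 ± 18.1 (SD, n = 2) CPM per kilobase in the treated libraries labelled knockout.

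**Figure D2:**
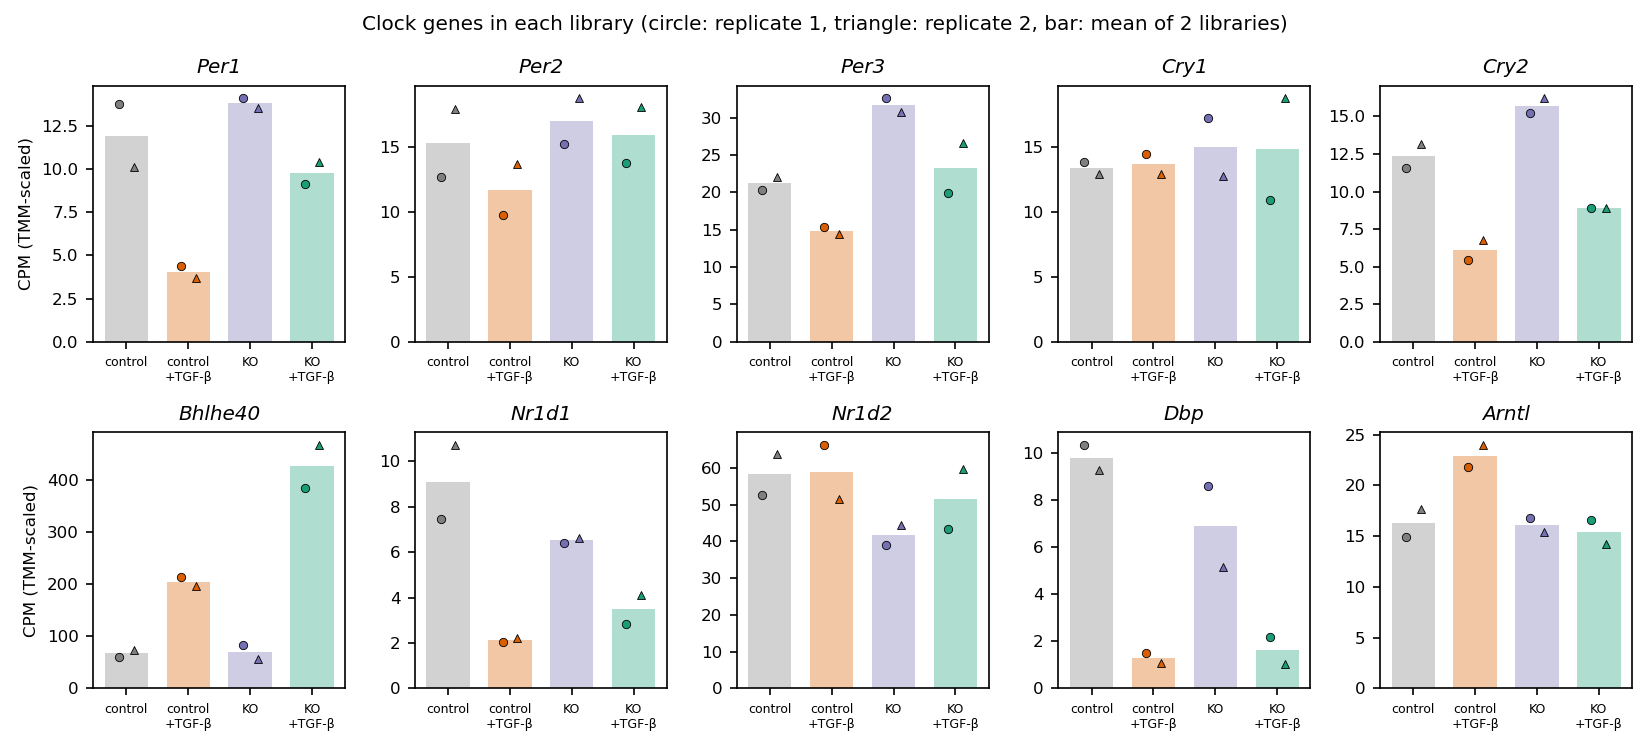
Level of each clock gene in CPM (vertical axes, TMM-scaled, starting at 0) in the 8 libraries, with circles for replicate 1, triangles for replicate 2 and bars for the mean of 2 libraries. Per1, Cry2, Nr1d1 and Dbp are lower in treated than in untreated control libraries, and Bhlhe40 is higher after TGF-β in control as well as knockout-labelled libraries.

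In control cells given TGF-β for 2 h, *Per1*, *Cry2*, *Nr1d1* and *Dbp* were lower and *Bhlhe40* was higher than without treatment. A gene was called at a Benjamini-Hochberg adjusted p below 0.05 in edgeR's quasi-likelihood test and an absolute log2 fold change above 0.5. Whether libraries overlapped is given as a description only. With 2 libraries in a group a gap can arise without a change, and its share over all genes was not counted. Of the 10 members, all of which passed the filter on low counts, 4 were called lower, where 4.47% of the 13028 tested genes were, and 1 higher, where 4.69% were. The median log2 fold change of the members was -0.45, beside 0.02 over all tested genes. As the members were chosen with earlier results of these data known, this contrast is no independent test. With library totals as the only scaling, the median over all genes moved to -0.13 and the calls over all genes split into 1019 lower and 397 higher in place of 583 and 611, while the same 5 members were called. In bulk RNA, fewer cells with a transcript and less of it per cell cannot be told apart.

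*Dbp* (ENSMUSG00000059824.4, plus strand of chromosome 7, NCBIM37 52960458 to 52965525) showed the largest change of the members. Its levels were 10.4 and 9.28 CPM in the untreated control libraries and 1.499 and 1.06 CPM after TGF-β, from 86 and 76 counts and 16 and 10 counts. Both treated libraries lay far below both untreated ones. The log2 fold change was -2.92 (SE 0.46, edgeR adjusted p = 0.00674), a 7.57-fold lower level. The exons of *Dbp* share 491 bases, 16.7% of its exon bases, with *Sphk2* (a sphingosine kinase) on the opposite strand, and their reads may not be separated, as no source used here says whether counting used the strand. *Sphk2* itself was called lower, by a log2 fold change of -0.91 (SE 0.19, edgeR adjusted p = 0.0232), from 26.1 and 23.8 to 13.4 and 13.1 CPM, a call lost in 6 of 17 alternatives (adjusted p = 0.05004 to 0.181), among them those without control replicate 1 or 2, treated control replicate 2 or untreated knockout-labelled replicate 1 or 2. The part of either gene in the counts of the other was not tested.

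*Nr1d1* (ENSMUSG00000020889.10, minus strand of chromosome 11, 98629246 to 98636647), which encodes the repressor REV-ERBα, had 7.48 and 10.7 CPM without and 2.06 and 2.22 CPM with TGF-β in control cells. The untreated libraries differed from each other more than the treated ones, yet the groups did not overlap. Its log2 fold change was -2.08 (SE 0.36, edgeR adjusted p = 0.00977), or 4.24-fold lower. *Thra*, a thyroid hormone receptor gene that shares 263 exon bases with *Nr1d1* on the opposite strand, stood at -0.43 on the log2 scale (SE 0.17, edgeR adjusted p = 0.137). *Nr1d2*, the gene of REV-ERBβ, had 52.7 and 63.8 CPM without and 66.4 and 51.4 CPM with TGF-β. These ranges overlapped, and the log2 fold change was 0.02 (SE 0.21, adjusted p = 0.972), with a sign that turned under library totals.

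Among the *Per* genes, which encode the repressors of the clock, *Per1* (ENSMUSG00000020893.11, plus strand of chromosome 11, 68908719 to 68923462) was the one called. It had 13.8 and 10.1 CPM in untreated and 4.40 and 3.70 CPM in treated control libraries. These groups did not overlap, at a log2 fold change of -1.55 (SE 0.27, edgeR adjusted p = 0.0108). *Per3* had 20.4 and 22.1 CPM without and 15.4 and 14.4 CPM with TGF-β, without overlap, a log2 fold change of -0.51 (SE 0.20, adjusted p = 0.143) that missed the threshold. *Per2* had 12.7 and 17.9 CPM without and 9.75 and 13.7 CPM with treatment. Its groups overlapped, at a log2 fold change of -0.39 (SE 0.28, adjusted p = 0.405).

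Of the cryptochrome genes, whose proteins repress together with PER, *Cry2* (ENSMUSG00000068742.5, minus strand of chromosome 2, 92243803 to 92274200) fell from 11.6 and 13.2 to 5.44 and 6.77 CPM. No treated library reached an untreated one, and the log2 fold change was -1.02 (SE 0.24, edgeR adjusted p = 0.0330). *Cry1* had 13.9 and 12.9 CPM without and 14.4 and 12.9 CPM with TGF-β, a log2 fold change of 0.03 (SE 0.29, adjusted p = 0.962) whose 95% interval ran from -0.62 to 0.68. Whether *Cry1* and *Cry2* differed in their response was not tested. D930015M05Rik, a non-coding gene on the strand opposite to *Cry2*, shares 295 exon bases with it and had 0 counts in all 8 libraries.

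*Bhlhe40* (ENSMUSG00000030103.5, plus strand of chromosome 6, 108610623 to 108616919), a repressor at E-boxes also known as Dec1, rose from 61.2 and 73.6 to 213 and 196 CPM in control cells. Every treated library stood above every untreated one, at a log2 fold change of 1.60 (SE 0.20, edgeR adjusted p = 0.00248), or 3.04-fold. The non-coding 0610040F04Rik, which shares 118 exon bases with *Bhlhe40* on the opposite strand, had at most 1 count in a library. *Arntl*, the activator, had 15.0 and 17.7 CPM without and 21.8 and 24.0 CPM with treatment. Although these libraries did not overlap, the log2 fold change of 0.49 (SE 0.20, adjusted p = 0.159) missed the threshold.

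*Bhlhe40* was called in all 17 alternatives, but without control replicate 1, *Per1* (log2 fold change -1.32, adjusted p = 0.116) and *Dbp* (adjusted p = 0.0659) were no longer called, nor was *Nr1d1* without control replicate 2 (adjusted p = 0.0810), nor *Per1* with only the 4 libraries of the comparison (adjusted p = 0.0504). *Cry2* lost its call in 7 alternatives, without control replicate 1 or 2 (adjusted p = 0.152 and 0.171), treated control replicate 1 (0.0724) or untreated knockout-labelled replicate 1 or 2 (0.0621 and 0.0627), with only the 4 libraries (0.111) and with a replicate block (0.0503). Of the 6 epithelial markers, whose sum was 4859 to 4982 CPM in untreated and 7086 to 9998 CPM in treated control libraries, *Krt8* and *Krt18* carried the difference, while *Cdh1* was at 229.7 ± 52.2 and 239.9 ± 3.25 CPM (SD, n = 2). Their part in the result was not tested.

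**Figure D3:**
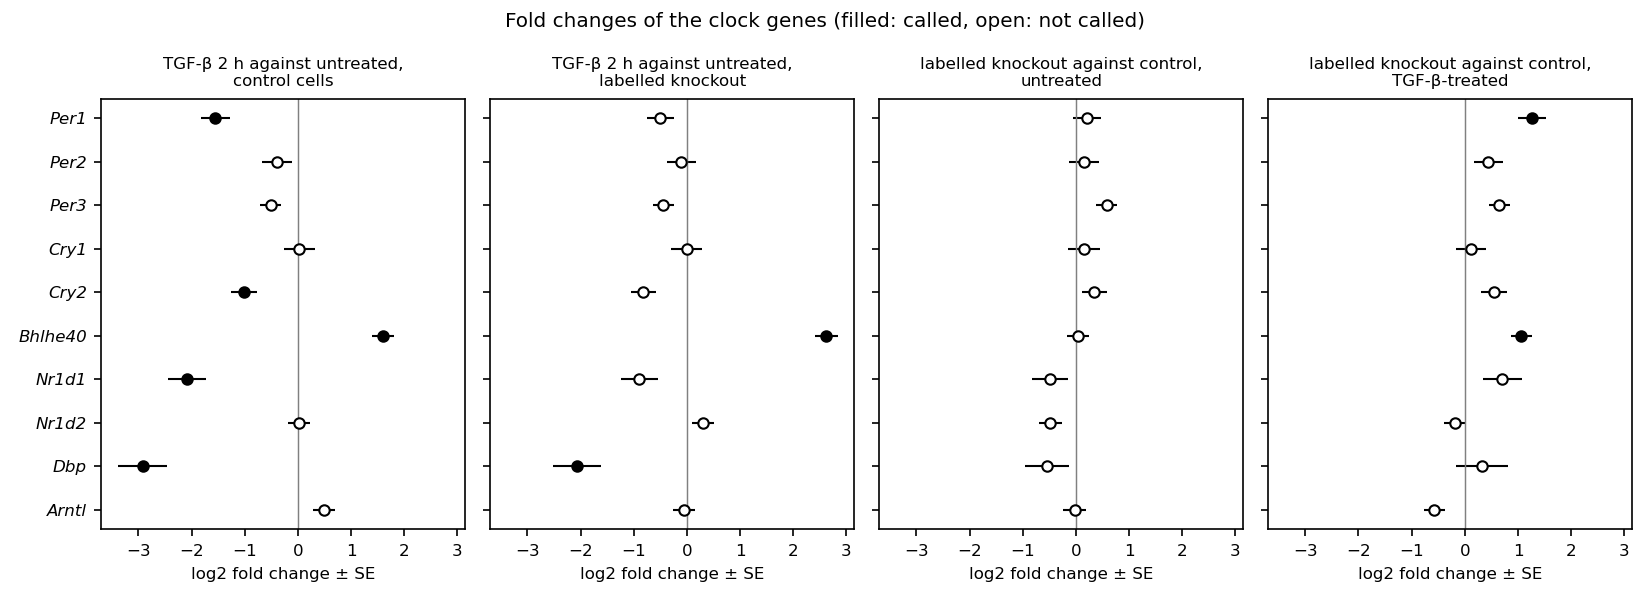
Log2 fold change ± SE (horizontal axes) of each clock gene in 4 comparisons, filled where called and open where not. In control cells 5 members are filled, in the libraries labelled knockout Dbp and Bhlhe40, and between these 2 sets of libraries none without and Per1 and Bhlhe40 with TGF-β.

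In the libraries labelled knockout, *Dbp* was lower and *Bhlhe40* higher with TGF-β than without. These were the 2 members called, 1 lower where 2.57% of all tested genes were called lower and 1 higher where 4.25% were called higher. The median of the members was -0.27 on the log2 scale, beside 0 over all genes, and 8 of the 10 fold changes were negative. With library totals alone the median over all genes was -0.15, the calls over all genes split into 613 lower and 388 higher in place of 335 and 554, and *Cry2* joined the members called.

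*Bhlhe40* went from 82.7 and 56.4 CPM to 385 and 468 CPM in these libraries. The groups lay far apart, at a log2 fold change of 2.62 (SE 0.21, edgeR adjusted p = 0.000313), or 6.16-fold higher. *Dbp* went from 8.60 and 5.18 to 2.20 and 1.03 CPM, based on 39 and 39 counts without and 27 and 13 counts with TGF-β. Again no library overlapped, and the log2 fold change was -2.06 (SE 0.45, edgeR adjusted p = 0.0279), or 4.17-fold lower. This call was lost in 6 of 17 alternatives, 5 of them without 1 library: control replicate 1 or 2 (adjusted p = 0.0621 and 0.0599), untreated knockout-labelled replicate 1 or 2 (0.173 and 0.0757) or treated knockout-labelled replicate 2 (0.185). The remaining one was the fit of only these 4 libraries (0.0520).

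The other repressors had smaller values here. *Cry2* had 15.2 and 16.2 CPM without and 8.88 and 8.90 CPM with TGF-β, which did not overlap, at a log2 fold change of -0.82 (SE 0.24, edgeR adjusted p = 0.0718). *Nr1d1* had 6.39 and 6.65 CPM without and 2.85 and 4.13 CPM with treatment, a log2 fold change of -0.90 (SE 0.35, adjusted p = 0.164). In both genes the treated libraries lay below the untreated ones without passing the test.

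*Per1* had 14.1 and 13.56 CPM without and 9.13 and 10.4 CPM with TGF-β in the libraries labelled knockout. Its groups did not overlap, and the log2 fold change was -0.50 (SE 0.26, edgeR adjusted p = 0.290). For *Per3* the levels were 32.6 and 30.8 CPM without and 19.97 and 26.6 CPM with treatment (log2 fold change -0.44, SE 0.20, adjusted p = 0.221). The remaining members *Per2*, *Cry1*, *Nr1d2* and *Arntl* had log2 fold changes between -0.10 and 0.30. *Arntl*, at 16.8 and 15.4 CPM without and 16.6 and 14.2 CPM with TGF-β, overlapped between the groups here. Epithelial markers summed to 5331 to 5592 CPM without and 6685 to 9109 CPM with treatment, and their part in these values was not tested.

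Whether the response to TGF-β differed between control libraries and those labelled knockout was tested as an interaction, called by the adjusted p alone. No member was called, and neither was any of the 13028 genes (0%), with edgeR. At an unadjusted p below 0.05 there were 3 members and 1134 genes, 8.70% of all. DESeq2 called 30 genes and limma-voom 0, with no member in either. *Bhlhe40* had the smallest p among the members, with a response larger by 1.02 on the log2 scale in the libraries labelled knockout (SE 0.28, 95% interval 0.39 to 1.65, adjusted p = 0.445). *Per1* had a difference of 1.05 (SE 0.37, adjusted p = 0.498) and *Nr1d1* one of 1.18 (SE 0.50, adjusted p = 0.541), both in the sense of a weaker fall in the libraries labelled knockout. Thus the fall of *Per1* called in control cells and not in the libraries labelled knockout was not shown to differ between them after adjustment. Without the filter on low counts, where edgeR called 211 of 20463 genes, *Bhlhe40* was called as well, with a difference of 1.09 (adjusted p = 0.00410).

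**Figure D4:**
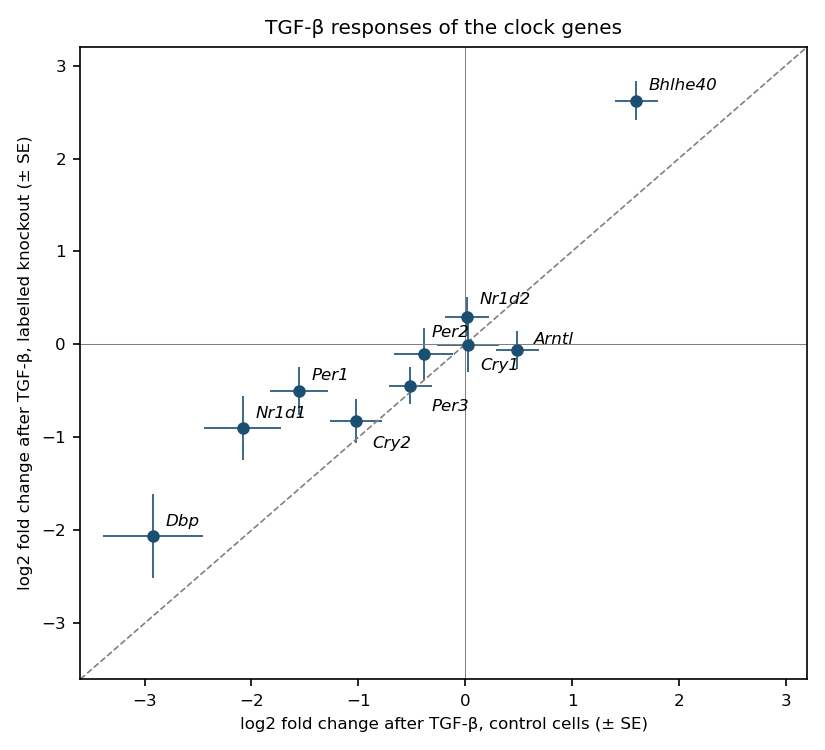
Log2 fold change after TGF-β in control cells (horizontal axis) against that in the libraries labelled knockout (vertical axis) for the 10 clock genes, with bars for the SE; the dashed line marks equal responses. Of the 10 genes, 8 lie above the line and 2, Cry1 and Arntl, below it, and none of the differences passed the adjusted test.

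Between untreated libraries, those labelled knockout and the controls did not differ in any member by the test. Over all genes 0.798% were called lower and 1.03% higher with edgeR, and none of the members was called by DESeq2 or limma-voom either. At an unadjusted p below 0.05 there were 2 members, beside 14.9% of all genes, and the median log2 fold change of the 10 was 0.09, beside 0.02 over all genes. *Per3* had 20.4 and 22.1 CPM in control libraries and 32.6 and 30.8 CPM in those labelled knockout, without overlap, at a log2 fold change of 0.58 (SE 0.20, edgeR adjusted p = 0.212). *Nr1d2* had 52.7 and 63.8 CPM in control libraries and 39.0 and 44.5 CPM in those labelled knockout (log2 fold change -0.48, SE 0.21, adjusted p = 0.333). The fold changes of the others ran from -0.53 for *Dbp* (SE 0.41) to 0.35 for *Cry2* (SE 0.24). *Dbp* and *Arntl* lie on chromosome 7, where the median log2 fold change of 943 tested genes in this comparison was -0.25, beside 0.02 over all genes. *Arntl* itself had a value of -0.02 (SE 0.21), and the part of the chromosome in the value of *Dbp* was not tested.

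After TGF-β, the libraries labelled knockout held more *Per1* and *Bhlhe40* RNA than the control libraries did. They were the 2 members called higher, where 8.47% of all genes were, and no member was called lower, where 6.57% of all genes were. The median log2 fold change of the members was 0.49, beside -0.01 over all genes. This comparison shares its control libraries with that of TGF-β in control cells, so its values are no separate measurement of those levels. *Per1* was at 4.40 and 3.70 CPM in treated control libraries and at 9.13 and 10.4 CPM in the treated libraries labelled knockout, which did not overlap. The log2 fold change was 1.26 (SE 0.27, edgeR adjusted p = 0.0162), or 2.40-fold. *Bhlhe40*, at 213 and 196 CPM against 385 and 468 CPM, also separated the groups, at a log2 fold change of 1.06 (SE 0.20, edgeR adjusted p = 0.00972), or 2.08-fold.

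Close to the threshold stood *Per3*, with 15.4 and 14.4 against 19.97 and 26.6 CPM and a log2 fold change of 0.65 (SE 0.20, edgeR adjusted p = 0.0578), and *Arntl*. Without the filter on low counts *Per3* was called (log2 fold change 0.68, adjusted p = 0.0480). For *Arntl* the levels were 21.8 and 24.0 CPM in control cells against 16.6 and 14.2 CPM in the libraries labelled knockout (log2 fold change -0.57, SE 0.20, edgeR adjusted p = 0.0829). Over the 943 tested genes of chromosome 7, where *Arntl* and *Dbp* lie, the median here was -0.14, beside -0.01 over all genes. The part of the chromosome in the value of either gene was not tested. Neither *Per3* nor *Arntl* passed the test in the main fit, although their libraries did not overlap. *Cry2* had a log2 fold change of 0.54 (SE 0.24, adjusted p = 0.158), *Nr1d1* of 0.70 (SE 0.36, adjusted p = 0.219) and *Dbp* of 0.33 (SE 0.50, adjusted p = 0.699). Without treated knockout-labelled replicate 2 neither *Per1* (adjusted p = 0.0949) nor *Bhlhe40* (adjusted p = 0.0591) was called, and without treated control replicate 2 *Per1* was not (adjusted p = 0.0559), nor was it in a fit of only these 4 libraries (0.0762).

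A wider list of 22 clock and clock-output genes, also chosen with earlier results of these data known, held 18 that passed the filter. *Npas2*, *Hlf*, *Fbxl21* and *Usp2* did not. After TGF-β in control cells 2 of these 18 were called lower and 2 higher, beside 4.47% and 4.69% of all genes. Of the same 18, 1 was called lower and 4 higher in the libraries labelled knockout, beside 2.57% and 4.25% of all genes, and the median log2 fold changes over the 18 were 0.10 and 0.19 in these comparisons. *Nfil3*, whose protein represses at the D-boxes that DBP activates, rose from 25.9 and 24.2 to 79.0 and 65.7 CPM in control cells and from 25.4 and 29.5 to 57.4 and 83.8 CPM in the libraries labelled knockout. Its log2 fold changes were 1.53 (SE 0.21, edgeR adjusted p = 0.00357) and 1.36 (SE 0.21, adjusted p = 0.00633), and it moved opposite to *Dbp* in control as well as knockout-labelled libraries. *Timeless*, which acts at replication forks and in the checkpoint as well as with the clock, fell from 51.1 and 51.4 to 25.6 and 22.1 CPM and from 53.4 and 47.2 to 22.0 and 20.1 CPM. These are log2 fold changes of -1.10 (SE 0.16, adjusted p = 0.00505) and -1.25 (SE 0.17, adjusted p = 0.00318).

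*Gm129*, the gene of the clock repressor CIART, went from 7.24 and 4.39 to 1.59 and 0.741 CPM in control cells, a log2 fold change of -2.29 (SE 0.58, edgeR adjusted p = 0.0402). In the libraries labelled knockout it had 4.63 and 1.86 CPM without and 1.22 and 1.83 CPM with TGF-β (log2 fold change -1.02, adjusted p = 0.349). Among genes whose proteins mark PER for turnover, the casein kinase gene *Csnk1e* was called higher in control cells by 1.00 (SE 0.22, adjusted p = 0.0262) and in the libraries labelled knockout by 0.89 (SE 0.22, adjusted p = 0.0441). *Csnk1d*, another casein kinase gene, was called in the libraries labelled knockout, by 0.62 (SE 0.14, adjusted p = 0.0298), though 14.2% of its exon bases overlap *Slc16a3* on the opposite strand. Also called there was *Fbxw11*, a ubiquitin ligase subunit gene, by 0.59 (SE 0.14, adjusted p = 0.0337). Its paralog *Btrc* stood at 0.0049 (adjusted p = 0.993) in control cells and 0.02 (adjusted p = 0.976) in the libraries labelled knockout. *Clock*, the partner of *Arntl*, had log2 fold changes of 0.60 (adjusted p = 0.0633) and 0.59 (adjusted p = 0.0812) and was not called. It was called in both comparisons with DESeq2, without the filter on low counts and without treated control replicate 1, and in the libraries labelled knockout also without treated control replicate 2.

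Between treated control libraries and treated libraries labelled knockout, 1 gene of the wider list was called lower and 1 higher, beside 6.57% and 8.47% of all genes. Without treatment edgeR called 0 of the 18, as did DESeq2 and limma-voom, while 3 had an unadjusted p below 0.05, beside 14.9% of all genes. *Rora*, the gene of an activating nuclear receptor that shares target sites with REV-ERB, was at 6.47 and 4.45 CPM in treated control libraries and at 0.978 and 1.91 CPM in those labelled knockout (log2 fold change -1.91, SE 0.44, edgeR adjusted p = 0.0204). The latter rest on 12 and 24 counts. Without treatment *Rora* had 4.70 and 4.39 CPM in control libraries and 1.98 and 1.60 CPM, from 9 and 12 counts, in those labelled knockout. That log2 fold change was -1.36 (SE 0.47, edgeR adjusted p = 0.21). The interaction was -0.55 (SE 0.64, edgeR adjusted p = 0.855), so a difference particular to treated libraries was not shown. *Bhlhe41*, the paralog of *Bhlhe40*, had 27.1 and 14.7 CPM in treated control libraries against 34.1 and 81.5 CPM in treated knockout-labelled ones (log2 fold change 1.46, SE 0.42, edgeR adjusted p = 0.0437). The treated knockout-labelled libraries of *Bhlhe41* lay far apart, and without replicate 2 its log2 fold change was 0.71 (adjusted p = 0.317).

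Apart from *Nfil3* in control cells and *Timeless* in the libraries labelled knockout, which were called in all 17 alternatives, each call of this list was lost in at least 1. Leaving out untreated knockout-labelled replicate 1 or 2 ended the calls of *Nfil3* (adjusted p = 0.0835 and 0.0629), *Csnk1e* (0.253 and 0.196), *Csnk1d* (0.173 and 0.204) and *Fbxw11* (0.192 and 0.204) in the libraries labelled knockout. Leaving out control replicate 1 ended those of *Timeless* (0.0554), *Gm129* (0.266) and *Csnk1e* (0.197) in control cells. *Gm129* was also lost without control replicate 2, treated control replicate 2 or untreated knockout-labelled replicate 1, and *Csnk1e* without control replicate 2, treated control replicate 1 or either untreated knockout-labelled library. In the libraries labelled knockout, *Csnk1e*, *Csnk1d* and *Fbxw11* were lost too without either control library or treated knockout-labelled replicate 2. Between the treated libraries, *Rora* was lost without treated control replicate 1 or either treated knockout-labelled library (adjusted p = 0.0528 to 0.110), and *Bhlhe41* without 6 of the 8 libraries in turn.

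**Figure D5:**
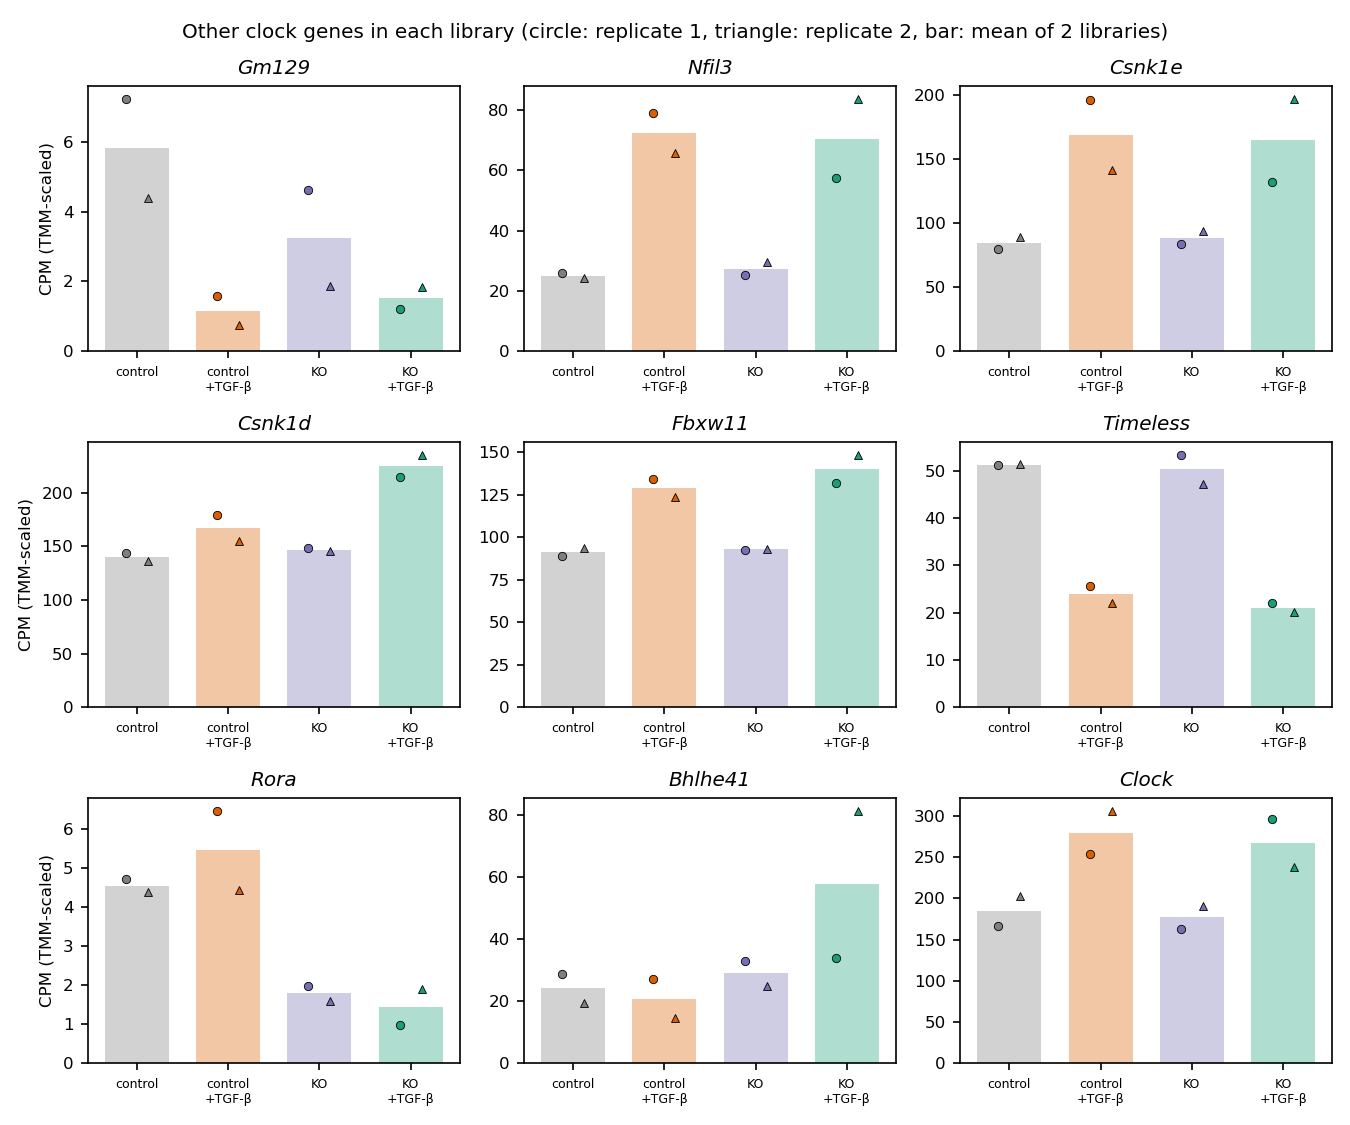
Level in CPM (vertical axes, TMM-scaled, starting at 0) of the 8 genes of the wider list called in at least 1 comparison and of Clock, in the 8 libraries, with circles for replicate 1, triangles for replicate 2 and bars for means. Nfil3 and Csnk1e are higher and Timeless lower after TGF-β in control as well as knockout-labelled libraries, and Rora is low in the libraries labelled knockout.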

How the data were processed

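RNA-seq of 8 NMuMG libraries was analysed, 2 biological replicates in each of 4 groups taken from the sample labels. The table that the authors deposited holds raw counts per gene and library. They aligned reads with subjunc to mm10 and mm9 and removed duplicates with samtools, while the submitters' processing notes name HISAT2 and limma with mm10. The labels describe a stranded total RNA kit and paired reads, the methods a stranded mRNA kit and single reads. Neither the tool used for counting nor its use of strand is given in the sources used here, so genes that overlap on opposite strands are uncertain. The identifiers of all 37310 genes are those of GENCODE vM1 on NCBIM37, from which symbols and positions were taken.

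CPM with TMM factors and all main tests came from edgeR 4.0.16 (R 4.3.3). Over all 8 libraries and without a block, 13028 genes kept by filterByExpr were fitted and tested with glmQLFTest, p-values were adjusted after Benjamini and Hochberg over all of them, and the procedure was tested on simulated data. The standard error is the absolute log2 fold change divided by the square root of F. P-values of the main fit rest on a spread estimated over all 8 libraries together, and whether that holds a spread between clones is not known. The median absolute log2 difference between replicates was 0.21 in untreated and 0.33 in treated control libraries. In the libraries labelled knockout it was 0.20 and 0.22. Named were all 10 members, every gene of the wider list called in at least 1 comparison, the targeted gene, the 5 genes most like *Nr1d1* and *Dbp*, and cell type markers as ranges. Named outside this rule were *Clock*, *Btrc* and *Wee1*, which were not called, single epithelial markers, genes whose exons overlap those of a member or of *Csnk1d*, and genes that failed the filter. Members, lists and alternatives were chosen with earlier results of these data known. Alternatives were DESeq2 1.42.0 or limma-voom (limma 3.58.1) as the test, RLE factors or library totals as the scaling, dropping the filter or asking for a mean of 10 counts, a replicate block, a fit of each comparison's own 4 libraries, dropping the fold change threshold, and omission of each library. A block with exchanged replicate numbers was added after seeing the data. A gene of the wider list is not reported here.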

Additional observations from a re-analysis of the deposited data

How the results depend on the processing

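The number of members called after TGF-β in control cells was 5, and 3 when only the libraries of the comparison were fitted (*Bhlhe40*, *Nr1d1* and *Dbp*, beside 3.74% of all genes). It ran from 2 to 5 when single libraries were left out, while the share called over all genes went from 9.16% to 1.05% without control replicate 1 and 2.28% without control replicate 2. In the libraries labelled knockout it was 2, 1 with only the libraries of the comparison (7.47% of all genes), and 1 to 3 without single libraries, where the share over all genes went from 6.82% to between 0.995% and 10.4%. Between treated control libraries and those labelled knockout it was 2, 1 with only the libraries of the comparison (3.21% of all genes), 3 without the filter (*Per3* added, 13.8%) and 0 to 2 without single libraries, where the share over all genes went from 15% to between 3.57% and 20.7%. Between the untreated ones it was 0 throughout. The interaction gave 0 members, or 1 without the filter on low counts. Among the wider list, the 4 calls in control cells became 5 with DESeq2 and 5 without the filter (*Clock* added), 3 with only the libraries of the comparison and 1 to 4 without single libraries. The 5 calls in the libraries labelled knockout became 6 with DESeq2 (*Clock* added), 4 with limma-voom (without *Csnk1e*, adjusted p = 0.0618), 2 with library totals only, 8 without the filter, 2 with the replicate block and 1 to 7 without single libraries. Between untreated libraries the 0 calls became 1 without the filter and 1 with only the libraries of the comparison, each time *Wee1*. The share called over all genes there rose from 1.83% to 3.69% and 6.48% in these 2 settings. Between treated libraries the 2 calls became 1 with limma-voom, 1 with the block, 0 with only the libraries of the comparison and 0 to 2 without single libraries. The interaction gave 1 gene of the wider list without the filter, where 1.03% of all genes were called. Shares called over all genes in control cells were 11.4% with DESeq2 and 9.88% without the filter, beside 9.16%. In the libraries labelled knockout they were 9.49% with DESeq2, 6.03% with limma-voom, 7.68% with library totals and 8.95% without the filter, beside 6.82%. Between treated libraries the share was 15.9% with limma-voom, beside 15%. A fit of only 4 libraries has fewer samples, and a lone sample left in a group was assumed to vary like the other groups. Otherwise the cause was not tested.

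With the replicate number as a block, 4 members were called after TGF-β in control cells (not *Cry2*, adjusted p = 0.0503), 2 in the libraries labelled knockout, 0 between untreated and 2 between treated libraries, and 0 for the interaction. Over all genes the block called 6.38%, 5.19%, 1.15% and 11.4% in the first 4 of these, beside 9.16%, 6.82%, 1.83% and 15% without it. Deviations of same-numbered libraries correlated at 0.30, -0.01, 0.10 and -0.47 across genes in the same 4 comparisons, and the labels do not say that a number marks a shared day or culture. With exchanged numbers, 4 members were called between treated libraries, *Per3* (adjusted p = 0.0337) and *Arntl* (0.0496) being added, while the share called over all genes rose from 15% to 21.6%.

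Reversed signs were found in members that were not called. With library totals only, the log2 fold changes of *Cry1* and *Nr1d2* in control cells were -0.11 and -0.13. *Cry1* in the libraries labelled knockout was at 0.0056 with DESeq2, 0.0069 with RLE factors and 0.060 without the filter, and its interaction at 0.037 without the filter. *Bhlhe40* between untreated libraries was at -0.0035 with limma-voom. Without single libraries, the log2 fold change in control cells ran from -0.068 to 0.11 for *Cry1* and from -0.19 to 0.19 for *Nr1d2*. In the libraries labelled knockout it ran from -0.28 to 0.11 for *Per2*, from -0.41 to 0.36 for *Cry1* and from -0.15 to 0.074 for *Arntl*. Between untreated libraries the range was -0.078 to 0.43 for *Per2*, -0.073 to 0.35 for *Cry1*, -0.26 to 0.29 for *Bhlhe40* and -0.15 to 0.10 for *Arntl*. Between treated libraries it was -0.31 to 0.46 for *Cry1*, -0.43 to 0.025 for *Nr1d2* and -0.30 to 0.78 for *Dbp*. The interaction ran from -0.12 to 0.29 for *Per3* and from -0.44 to 0.34 for *Cry1*. At the depth of these libraries *Dbp* and *Nr1d1* rest on few counts after TGF-β, and 3 counts correspond to as much as 0.661 CPM.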

Other observations

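The genes whose log2 CPM over the 8 libraries were most like that of *Nr1d1*, among 13028 tested genes, were Gm17066 (Pearson's r = 0.986), Trim21 (0.972), Cpeb4 (0.972), Egr1 (0.967) and BC026590 (0.965). For *Dbp* they were Heatr7b1 (0.981), Anp32b (0.981), Gm15372 (0.979), Tonsl (0.979) and Xrcc6bp1 (0.977). *Egr1* is a growth-factor-responsive transcription factor gene, and the others include no member of the wider clock list. These correlations describe 8 libraries that share treatment and label and were picked as the highest of many, so they carry no p.

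Between members over the same 8 libraries, *Nr1d1* and *Dbp* correlated at r = 0.874, *Per1* and *Cry2* at 0.882, and *Per1* and *Per3* at 0.866. *Per1* and *Arntl* stood at -0.906, and *Bhlhe40* and *Dbp* at -0.862. *Cry1* correlated with *Per1* at 0.208 and with *Cry2* at 0.0560. The points share the libraries and the treatment groups, so that these values restate in part the group levels.

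*Wee1*, a cell cycle kinase gene under E-box control, was looked at after its values were seen and was not called in any of the 5 comparisons, and its log2 fold change of untreated knockout-labelled against untreated control libraries was -0.96 (SE 0.28, edgeR adjusted p = 0.140). It was called there without the filter on low counts and with only the libraries of that comparison. The share called over all genes rose from 1.83% to 3.69% and 6.48% in these settings. *Wee1* lies on chromosome 7, whose median log2 fold change in that comparison was -0.25.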
